A study of Brassica napus with 12 samples.

Results

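The genes described here come from the late part of chromosomes A04 and C04 of Brassica napus (oilseed rape), as ordered by the number in their identifiers. They are called end segments, although on C04 further identifiers follow, up to BnaC04g56910D. All genes from BnaA04g20410D to BnaA04g29730D (529 genes, the last identifiers of A04 in the deposited tables) and from BnaC04g48220D to BnaC04g50950D (163 genes) were taken, 692 of 52962 genes in all. They were selected on measured transcript levels: in the libraries numbered Si replicate 3, root and leaf were both shifted against the other libraries of their organ, A04 downwards and C04 upwards. Those shifts are therefore given as a description, with no test.

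Poly(A)-selected, stranded RNA-seq libraries were made from roots and mature leaves of wild-type plants of the variety Citizzen, grown in a greenhouse in nutrient solution. From the emergence of leaf 4, the Si plants received 1.7 mM silicon as sodium metasilicate for 1 week, and the no-Si plants received 3.4 mM NaCl to match the sodium. With 2 organs and 2 treatments there were 4 groups of 3 libraries, which held 14429867 to 21792206 gene counts apiece. NaCl also supplied chloride to the no-Si plants, and chloride and silicon cannot be told apart as a source of any difference. A planting date of 12 February is given for the no-Si libraries and leaf Si replicate 3, of 21 March for the other Si libraries, and a harvest date of 28 March for all. The later date lies 1 week before harvest, which is too short for the growth protocol in the labels (4 days of germination and 10 days of nutrient supply before the tank), so what it marks is uncertain. The labels do not say how many plants made up a replicate, nor whether root and leaf libraries with equal numbers shared plants, so p-values measure the spread between these libraries. The identifiers carry no gene names, so organ markers could not be looked up.

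B. napus arose from a cross between B. rapa, which gave its A subgenome, and B. oleracea, which gave its C subgenome, and most genes have a similar copy, a homoeologue, in the other subgenome. In this crop, homoeologous chromosomes are known to exchange or replace segments, and such events differ between varieties and between plants of a variety. A transcript level of such a gene depends on how reads of its copies are told apart, and reads that fitted several places were counted for no gene here. The copy number of the segments was not measured.

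Not every gene of the segments was transcribed at a level that could be followed. Of the 529 A04 genes, 320 (60.5%) reached a mean of at least 1 CPM (the read count normalised to the total gene counts of its library) in both organs and are called measured, 73 reached it in roots only, 30 in leaves only, 76 were counted but stayed under it in both, and 30 had no count in any of the 12 libraries. Of the 163 C04 genes, 101 (62.0%) were measured in both organs, 23 reached the minimum in roots only, 6 in leaves only, 19 in neither, and 14 had no count. Among all other genes 67.0% were measured in both organs. No gene of either segment switched off within an organ, meaning that each library stood either below 1/30 or above 1/6 of the gene's highest CPM there, with at least 1 below and that highest CPM at 2 or more.

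The shift of a gene in a library is its log2 CPM minus the median log2 CPM of the other 5 libraries of the same organ, so a shift of 0 is the level usual for the organ. In whole organs, fewer cells that transcribe a gene and less transcript per cell cannot be told apart. In roots the median shift of the 320 measured A04 genes was 0.02, -0.01 and 0.04 in no-Si replicates 1, 2 and 3, 0.03 and 0.06 in Si replicates 1 and 2, and -0.17 in Si replicate 3. In leaves it was 0.08, -0.07, 0.00, -0.00 and 0.10 in the same 5 libraries and -0.12 in Si replicate 3. The A04 segment was thus lowest in Si replicate 3 of both organs, and the other replicates lay on both sides of 0.

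The 101 measured C04 genes had median root shifts of -0.11, -0.03, -0.03, -0.04 and 0.03 in no-Si replicates 1 to 3 and Si replicates 1 and 2, and 0.18 in Si replicate 3. Their leaf shifts were 0.02, -0.09, -0.12, -0.05 and 0.05 in the other 5 libraries and 0.21 in Si replicate 3. The C04 segment was thus highest where A04 was lowest. Root and leaf of Si replicate 3 carry different planting dates in the labels, and the part of the date in the shift was not tested.

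**Figure D1:**
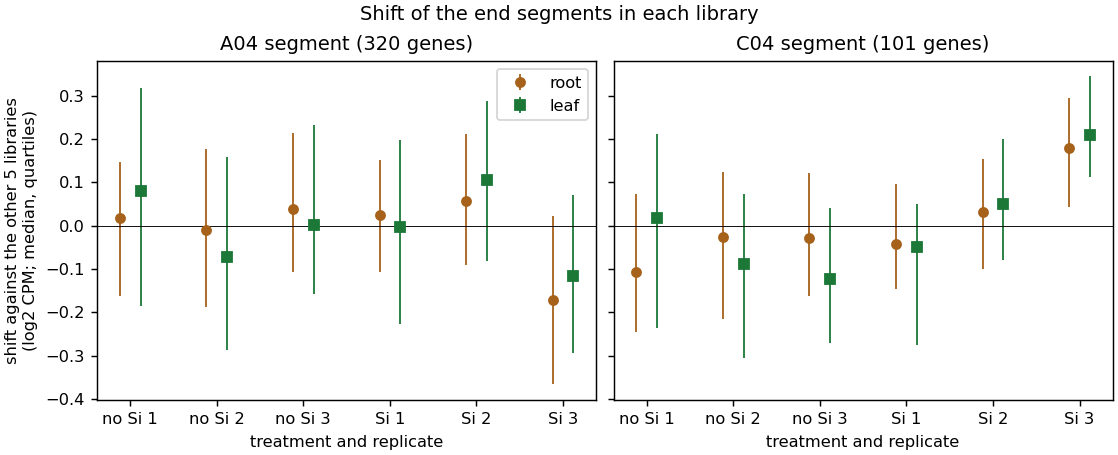
Shift of the measured genes of each segment (y axis, log2 CPM against the other 5 libraries of the organ) in each replicate of each treatment (x axis), in roots and leaves. Points are medians over genes and bars run from the lower to the upper quartile. In Si replicate 3 the A04 medians are -0.17 in roots and -0.12 in leaves, and the C04 medians 0.18 and 0.21.

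On a linear scale these medians put A04 at 0.888 times the usual level in root Si replicate 3 and 0.922 times in leaf, and C04 at 1.13 and 1.16 times. The leaf values contain a general offset, because the median of all other genes in leaf Si replicate 3 was 0.06, against 0.00 in root. Relative to all other genes, A04 stood at -0.18 in root and -0.17 in leaf, and C04 at 0.18 and 0.15. The other 5 libraries stood between 0.01 and 0.07 for A04 and between -0.07 and 0.01 for C04 on that scale. Each of those 5 has Si replicate 3 in its reference. Over the rest of each chromosome taken whole, the medians were nearer to those of all other genes. The 700 measured genes elsewhere on A04 had medians of 0.00 in root and 0.05 in leaf of Si replicate 3, and the 1688 elsewhere on C04 had 0.02 and 0.07.

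The shift was a displacement of many genes by a small amount. In Si replicate 3 the middle 50% of A04 genes lay between -0.37 and 0.02 in root and between -0.29 and 0.07 in leaf, with 72.8% and 66.3% of genes below 0. For C04 the middle 50% lay between 0.04 and 0.30 in root and between 0.11 and 0.34 in leaf, with 80.2% and 87.1% above 0. Both segments therefore also held genes with no shift or one against the segment.

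Counted gene by gene, 169 of the 320 A04 genes (52.8%) were below 0 in both organs of Si replicate 3, where 23.8% of all 35457 measured genes were. The C04 count was 73 of 101 genes (72.3%) above 0 in both organs, beside 33.8% of all measured genes. Si replicate 3 was the lowest of the 6 libraries in both organs for 42 A04 genes (13.1%, beside 2.32% of all measured genes) and the highest in both for 27 C04 genes (26.7%, beside 5.27%). In the other 5 replicates, between 0.625% and 6.56% of the A04 genes were lowest in both organs and between 0% and 2.97% of the C04 genes were highest in both. Nothing further is read from these counts, since the same libraries chose the segments. Large displacements were few: 10 A04 genes (3.13%, beside 0.886% of all measured genes) were lower by 0.5 or more in both organs, and 4 C04 genes (3.96%, beside 0.891%) were higher by as much.

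Genes that were low in the root library tended to be low in the leaf library. Across the 320 A04 genes Pearson's r between the root and leaf shifts of Si replicate 3 was 0.29 and Spearman's rho 0.32, and across the 101 C04 genes r was 0.42 and rho 0.45. Across all other measured genes of these 2 libraries the values were 0.29 and 0.24, so A04 had the same r as genes at large. Genes are not independent replicates, and the points of each organ share a library and its scaling.

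**Figure D2:**
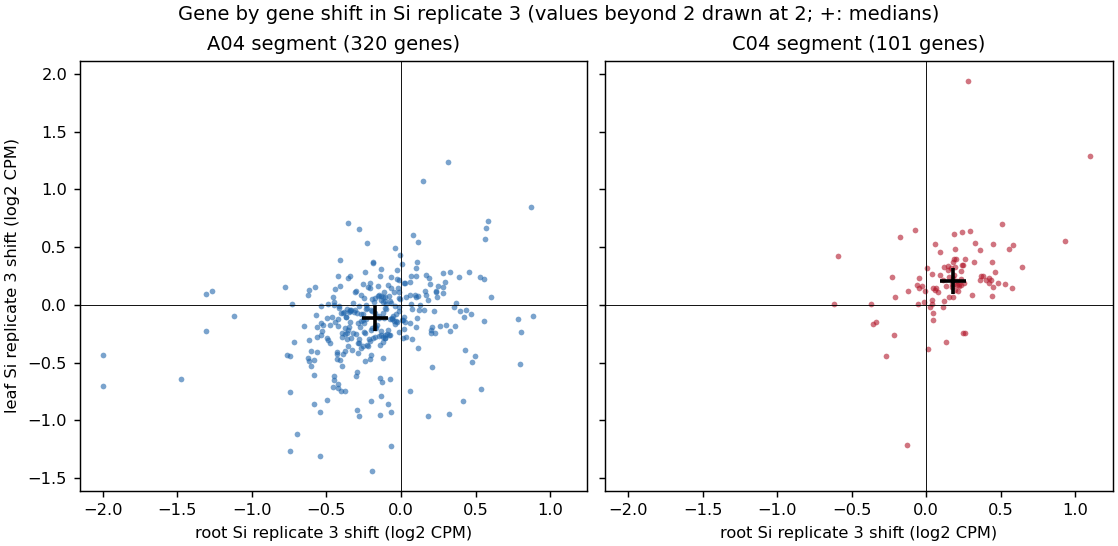
Each point is a measured gene of the A04 segment (left) or the C04 segment (right), with its shift in root (x axis) and leaf (y axis) of Si replicate 3, in log2 CPM. Crosses mark the medians. The A04 cloud is centred at -0.17 and -0.12, the C04 cloud at 0.18 and 0.21, and both have points in all quadrants.

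The displacement was seen at all levels of transcription. With the A04 genes divided by mean CPM into a low, a middle and a high group of 106 or 107 genes, the median shifts of Si replicate 3 were -0.14, -0.14 and -0.20 in root and -0.15, -0.10 and -0.12 in leaf. The matching C04 groups of 33 or 34 genes had 0.15, 0.19 and 0.19 in root and 0.23, 0.23 and 0.17 in leaf. A04 genes with higher transcript levels in root than in leaf (117 genes) were shifted by -0.19 in root and -0.12 in leaf, and those higher in leaf (124 genes) by -0.15 and -0.11. All of these groups had the sign of their segment in both organs.

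Genes transcribed in 1 organ have a shift in that organ only. They were counted in the libraries that chose the segments, so their values are a description too. The 73 root-only A04 genes had a median shift of -0.09 in root Si replicate 3, with 46 below 0, and between -0.08 and 0.14 in the other 5 root libraries. The 30 leaf-only A04 genes had -0.29 in leaf Si replicate 3, with 23 below 0, and between -0.13 and 0.18 in the other leaf libraries. Root-only and leaf-only genes elsewhere had medians of -0.01 and -0.06 in the same 2 libraries. The leaf-only A04 genes were thus lowest in Si replicate 3, while the root-only ones were only marginally lower there than in no-Si replicates 1 and 2, at -0.08 each.

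Of the C04 genes, the 23 root-only ones had a median of 0.06 in root Si replicate 3, with 13 above 0, which was under the 0.10 of no-Si replicate 1 and the 0.11 of Si replicate 1. The 6 leaf-only genes had 0.15 in leaf Si replicate 3, with 5 above 0, and -0.16 to 0.10 in the other leaf libraries. The C04 shift was therefore not seen in the root-only genes at this number of genes.

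Along A04, the medians of successive windows of 25 measured genes placed the lower level in the middle of the segment. The first window, from BnaA04g20410D to BnaA04g21120D, stood at 0.02 in root and 0.10 in leaf of Si replicate 3, and the 25 measured genes just before it, from BnaA04g19750D to BnaA04g20330D, at -0.04 and -0.09. From BnaA04g21190D to BnaA04g27270D, 225 measured genes of 360 had a median of -0.24 in root and -0.18 in leaf, where the other 5 libraries lay between -0.01 and 0.06 and between -0.07 and 0.11. In that stretch 140 genes (62.2%) were below 0 in both organs, beside 23.8% of all measured genes. Its ends are window edges set with these shifts known, so its values are a description only.

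The last identifiers of A04, from BnaA04g27280D to BnaA04g29730D, behaved differently. Their 70 measured genes of 130 had medians of -0.08 in root and -0.01 in leaf of Si replicate 3. Of these genes 24 (34.3%) were below 0 in both organs, beside 23.8% of all measured genes. Within them the 25 measured genes from BnaA04g29060D to BnaA04g29730D stood at -0.23 and -0.13.

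Of the 12 full A04 windows in the segment, 10 were below 0 in root and 9 in leaf of Si replicate 3. In 6 of the 12 the shift passed -0.1 in both organs, which no window of the other 5 replicates did within the segment. The windows ran from -0.37 to 0.03 in root and from -0.28 to 0.10 in leaf. The window from BnaA04g23400D to BnaA04g23910D stood at 0.03 in root and -0.03 in leaf although its neighbours on both sides were lower. Elsewhere on A04, 0 of 28 windows passed -0.1 in both organs of Si replicate 3. There 1 window did in no-Si replicate 1, 2 did in no-Si replicate 2 and 0 did in the remaining replicates.

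On C04 the level was raised evenly. Its 4 full windows stood between 0.18 and 0.19 in root and between 0.19 and 0.22 in leaf of Si replicate 3. Raised levels were also found past both ends of the chosen range, though in root not without a break before it. Of the genes after it, 24 measured ones from BnaC04g50970D to BnaC04g51770D had medians of 0.23 in root and 0.27 in leaf. The other 5 libraries lay between -0.16 and 0.07 in root. Of these 24 genes, 21 (87.5%) were above 0 in both organs of Si replicate 3, beside 33.8% of all measured genes. The 164 measured genes from BnaC04g51810D to BnaC04g56910D had 0.02 in root and 0.08 in leaf. They were not level throughout. Among them, the window from BnaC04g56080D to BnaC04g56730D stood at 0.25 in root and 0.06 in leaf. The final 14 measured genes, from BnaC04g56740D to BnaC04g56910D, stood at 0.17 and 0.27.

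Before the C04 range, the 100 measured genes from BnaC04g45600D to BnaC04g48160D had medians of 0.12 in root and 0.17 in leaf. Of them 64 (64%) were above 0 in both organs, beside 33.8% of all measured genes. The other 5 libraries lay between -0.07 and 0.04 in root and between -0.15 and 0.05 in leaf. The 25 nearest, from BnaC04g47510D, stood at 0.06 and 0.18, and the window from BnaC04g45600D to BnaC04g46090D at 0.25 and 0.27. Over the 25 nearest, root no-Si replicate 2 was higher, at 0.18. In the window before them, BnaC04g46890D to BnaC04g47500D, root Si replicate 3 had 0.06 and root Si replicate 2 had 0.13. In leaf Si replicate 3 was the highest in both. Outside the segment 3 of 66 full C04 windows passed 0.1 in both organs of Si replicate 3, and 4 did in Si replicate 2. That count leaves out the window crossing the end of the range, BnaC04g50950D to BnaC04g51770D, at 0.23 in root and 0.25 in leaf of Si replicate 3. It also leaves out the last window of C04, of 14 genes, at 0.17 and 0.27. The chosen range thus covers the most even of the raised windows, not all of them.

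**Figure D3:**
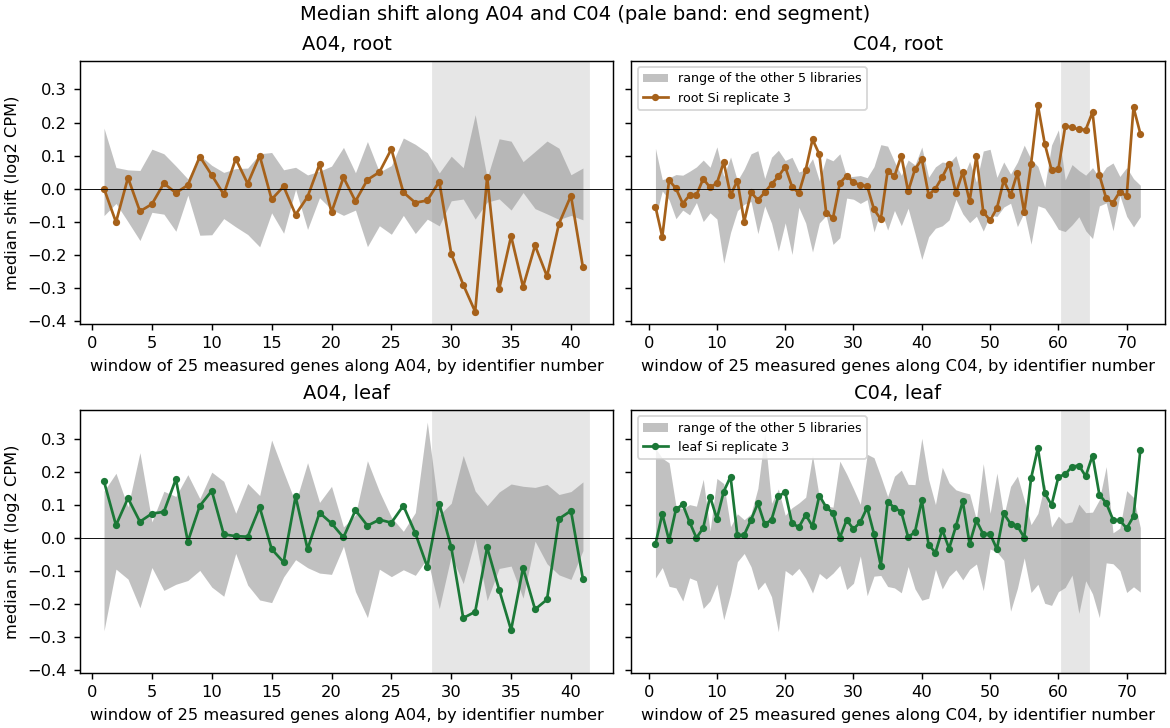
Median shift (y axis, log2 CPM) of successive windows of 25 measured genes in identifier order (x axis) along A04 (left) and C04 (right), in root (top) and leaf (bottom). Lines show Si replicate 3, dark bands the range of the other 5 libraries, and pale bands the end segments. On A04 the line falls to -0.37 in root and -0.28 in leaf inside the segment, and on C04 it stays between 0.18 and 0.22 within it, with further high windows on either side.

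The genes at the extremes show how single genes follow or leave their segment. BnaA04g22040D, the A04 gene lowest in Si replicate 3 over both organs among those with a mean of at least 5 CPM in each, had 125, 163 and 131 CPM in the no-Si roots and 91.8, 50.4 and 50.2 CPM in the Si roots. Its leaf values were 141, 6.79 and 8.65 CPM without Si and 22.9, 7.79 and 7.38 CPM with Si. Its root level was thus equally low in Si replicates 2 and 3, and in leaf no-Si replicate 1 stood far above all others.

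BnaA04g23480D, the next A04 gene, had 8.59, 7.97 and 9.67 CPM in the no-Si roots and 7.97, 7.52 and 6.47 CPM in the Si roots. Its leaf values were 39.4, 9.43 and 10.4 CPM without Si and 12.7, 12.3 and 6.54 CPM with Si. Si replicate 3 was the lowest library in both organs, with shifts of -0.30 in root and -0.91 in leaf.

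BnaC04g49120D, the C04 gene highest in Si replicate 3, had 8.09, 6.83 and 15.2 CPM in the no-Si roots and 10.3, 8.64 and 16.5 CPM in the Si roots. In leaves it had 8.31, 4.64 and 6.55 CPM without Si and 6.00, 7.84 and 9.64 CPM with Si. Replicate 3 of both treatments was high in roots, and the root shift of Si replicate 3 was 0.93.

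BnaC04g49790D had 47.4, 32.5 and 43.0 CPM in the no-Si roots and 40.4, 49.0 and 61.2 CPM in the Si roots. In leaves it had 20.6, 19.7 and 24.1 CPM without Si and 19.7, 31.5 and 33.5 CPM with Si. Si replicate 3 led in both organs, closely followed in leaf by Si replicate 2.

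Genes against the trend were found in both segments. BnaA04g23600D, the A04 gene highest in Si replicate 3, had shifts of 0.14 in root and 1.07 in leaf, with 11.9 CPM in leaf Si replicate 3 and 1.94 to 7.56 CPM in the other leaves. BnaC04g48490D, the lowest C04 gene, had shifts of -0.27 in root and -0.45 in leaf.

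The summed level of each segment is the CPM of all its genes, whether or not they were measured, and gives abundant genes more weight than the median does. For A04 the root sums were 10255, 10746 and 9986 CPM without Si and 10132, 9986 and 9472 CPM with Si. The leaf sums were 9977, 9007 and 9347 CPM without Si and 8589, 8720 and 7527 CPM with Si. Si replicate 3 had the lowest sum in both organs, and in leaves all Si libraries lay below all no-Si libraries.

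The C04 root sums were 3144, 3214 and 3200 CPM without Si and 3178, 3226 and 3546 CPM with Si. The leaf sums were 3003, 3033 and 2894 CPM without Si and 3062, 3064 and 3457 CPM with Si. The other 10 libraries stayed between 2894 and 3226 CPM, below Si replicate 3 of either organ. In leaves all 3 Si sums lay above all 3 no-Si sums. Against the mean of the other 5 libraries of its organ, Si replicate 3 differed by 11.1% in root and 14.8% in leaf for C04, and by -7.32% and -17.5% for A04.

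The ratio of the A04 sum to the C04 sum was 3.26, 3.34 and 3.12 in the no-Si roots and 3.19, 3.10 and 2.67 in the Si roots. In leaves it was 3.32, 2.97 and 3.23 without Si and 2.81, 2.85 and 2.18 with Si. Si replicate 3 had the lowest ratio in both organs, lower than the mean of the other 5 libraries by a difference of -16.6% in root and -28.2% in leaf. In leaves Si replicates 1 and 2 also fell below the 3 no-Si libraries. BnaA04g27920D held 9.43% of the leaf A04 sum on average. It had 1450, 706 and 1158 CPM without Si and 596, 673 and 433 CPM with Si. The part of this gene in the lower leaf ratios was not tested, and the C04 leaf sums were also higher in all Si libraries.

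**Figure D4:**
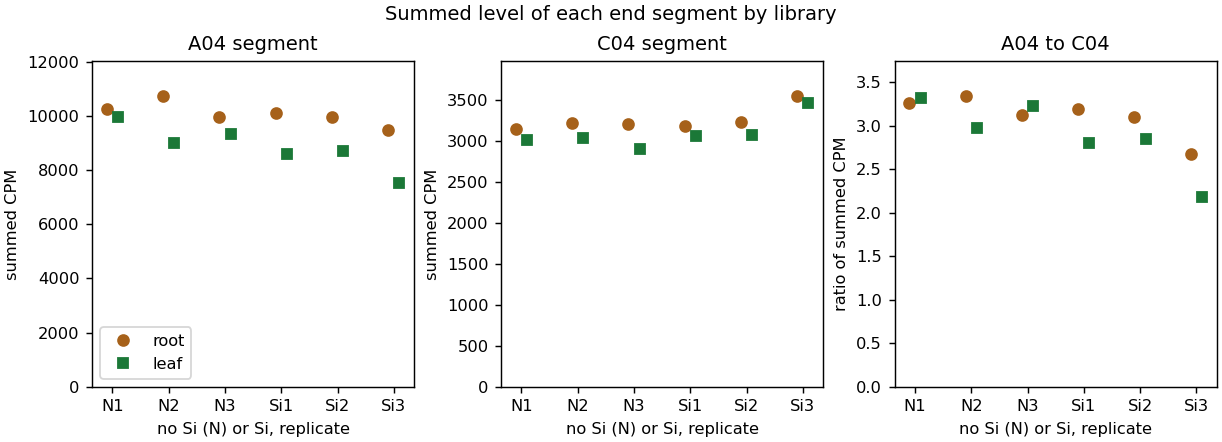
Summed CPM of all genes of the A04 segment, of the C04 segment, and the ratio of these sums (y axes, from 0), for no-Si replicates 1 to 3 (N1 to N3) and Si replicates 1 to 3 (x axis). Each point is 1 library, in root or leaf. Si replicate 3 has the lowest ratio in each organ, 2.67 in root and 2.18 in leaf.

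The 10 most abundant genes held 33.4% of the A04 sum in roots and 40.3% in leaves, and 37.0% and 46.6% of the C04 sum. BnaA04g24870D held 15.1% of the A04 sum in roots, with 1235 to 1868 CPM there and 3.34 to 12.8 CPM in leaves. BnaC04g50590D held 7.92% of the C04 sum in roots and 15.9% in leaves. In Si replicate 3 it had 284 CPM in root and 576 CPM in leaf, the highest value of each organ, while the other roots had 222 to 272 CPM and the other leaves 407 to 549 CPM. BnaC04g50740D, second in C04 over all libraries, had 140 CPM in root Si replicate 3, just under the 142 CPM of no-Si replicate 1, and 137 CPM in leaf, the highest of the leaves. BnaA04g24870D did not follow its segment in root, where its shift in Si replicate 3 was 0.32.

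The comparison of Si with no Si asks whether a week of silicon supply changed transcript levels. It includes Si replicate 3 and is thus not independent of how the genes were chosen. No gene of either segment was called in roots (412 A04 and 128 C04 genes tested) at an adjusted p under 0.05 by edgeR's quasi-likelihood test with Benjamini-Hochberg adjustment, where 0.00235% of all tested genes were called. None was called in leaves either (388 A04 and 115 C04 genes tested), beside 0.00731% of all tested genes.

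At an unadjusted p under 0.05 in the same edgeR fits, 11 A04 genes were higher and 27 lower with Si in roots, and 12 C04 genes were higher and 3 lower. Of all tested genes 3.52% were higher and 5.34% lower at that threshold. In leaves 3 A04 genes were higher and 26 lower, and 1 C04 gene was higher and 2 lower, beside 1.38% and 2.71% of all tested genes. DESeq2 called 5 A04 genes in roots (1 higher and 4 lower) beside 1.08% of all tested genes (461 genes), and no gene of either segment in leaves, beside 0.105% (43 genes).

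The fitted fold changes carried the sign of the Si replicate 3 shifts. In roots the median log2 fold change of Si over no Si was -0.05 over the A04 genes, 255 of 412 being lower with Si, and 0.07 over the C04 genes, 86 of 128 being higher, with 0.00 over all tested genes. In leaves the medians were -0.07 for A04 (240 of 388 lower), 0.08 for C04 (74 of 115 higher) and -0.00 for all tested genes. Without Si replicate 3 they were -0.00 for A04 and 0.00 for C04 in roots, and -0.02 and 0.01 in leaves. The lean of the segments in the Si comparison was close to 0 without that replicate. As the segments were chosen by it, nothing further is read from that change.

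Genes whose Si and no-Si libraries did not overlap were counted as well. In roots all 3 Si libraries were below all 3 no-Si libraries for 33 A04 genes and above them for 16, and for 4 and 16 C04 genes, beside 5.73% and 7.49% of all tested genes. In leaves they were below for 26 A04 genes and above for 20, and for 1 and 12 C04 genes, beside 3.11% and 6.5% of all tested genes. With Si replicates 1 and 2 alone set against the no-Si roots, 41 A04 genes were below and 56 above (9.95% and 13.6%, beside 9.49% and 14.8% of all tested genes), and 11 and 22 C04 genes. In leaves 31 A04 genes were then below and 38 above, beside 5.74% and 9.89% of all tested genes, and 6 and 14 C04 genes. More A04 genes were below than above only with Si replicate 3 included. Since that replicate chose the segments, nothing further is read from this.

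The gene with the smallest p in roots was BnaA04g26970D, with 12.3, 12.4 and 12.9 CPM without Si and 7.45, 6.74 and 7.55 CPM with Si. The groups did not overlap, with means of 12.5 ± 0.313 and 7.25 ± 0.441 CPM (SD, n = 3). The log2 ratio of Si to no Si was -0.81 with an SE of 0.12, lower in 3 of 3 Si libraries, and the adjusted p of edgeR (Benjamini-Hochberg) was 0.121. DESeq2 gave an adjusted p of 0.00194, the lowest of all alternatives, whose highest was 0.659. Si replicate 3 was not the lowest of the Si roots for this gene.

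BnaA04g27560D had 33.6, 40.5 and 39.3 CPM in the no-Si roots and 27.5, 22.7 and 25.3 CPM in the Si roots, again without overlap. The log2 ratio was -0.61 with an SE of 0.11, at an adjusted p of 0.207 by edgeR and, over the alternatives, of 0.00698 (DESeq2) to 0.873. On the other side BnaA04g24700D had 6.77, 6.58 and 7.43 CPM without Si and 12.7, 15.8 and 10.2 CPM with Si, a log2 ratio of 0.87 with an SE of 0.17. Its adjusted p was 0.232 by edgeR and 0.00829 (DESeq2) to 0.856 over the alternatives, and its sign was opposite to that of its segment. BnaC04g48550D had 7.21, 9.55 and 11.2 CPM without Si and 15.7, 14.6 and 14.2 CPM with Si (log2 ratio 0.65, SE 0.16, adjusted p by edgeR 0.291).

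In leaves the genes with the smallest p had edgeR Benjamini-Hochberg adjusted p-values of 1.00. BnaA04g27920D, whose leaf values are given above, had a log2 ratio of -0.99, with an SE of 0.28 and no overlap between the groups. BnaA04g25390D had 286, 166 and 275 CPM without Si and 135, 168 and 138 CPM with Si, with a log2 ratio of -0.76, an SE of 0.21 and overlapping groups. BnaC04g50320D had 1.24, 1.80 and 1.56 CPM without Si and 3.52, 3.05 and 7.08 CPM with Si, with a log2 ratio of 1.53, an SE of 0.37 and the highest value in Si replicate 3. BnaA04g28600D had a log2 ratio of 0.36 with an SE of 0.14, from 21.0 ± 2.85 to 27.9 ± 3.60 CPM (SD, n = 3).

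Root against leaf is a contrast that the choice of the segments did not use. Over all 12 libraries, edgeR's quasi-likelihood test called 185 of 440 tested A04 genes higher in root and 159 higher in leaf, at a Benjamini-Hochberg adjusted p under 0.05. Of 134 tested C04 genes, 48 were higher in root and 50 in leaf. Of all tested genes 38.6% were higher in root and 38.3% in leaf, 76.9% together, so both segments were divided between the organs about as genes at large. With libraries scaled by their totals alone, without TMM factors, the median root over leaf log2 difference of all genes moved from 0.01 to 0.75. Then 280 A04 genes were called higher in root and 110 in leaf, and 88 and 32 C04 genes. Of all 45222 tested genes, 28704 were called higher in root and 10065 in leaf with that scaling.

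Differences of 2 or more on the log2 scale were called for 79 A04 genes in root and 75 in leaf, and for 22 and 18 C04 genes, beside 13.7% and 14.8% of all tested genes. The median log2 difference of root over leaf was 0.07 for A04, with quartiles of -1.14 and 1.27, and 0.04 for C04, with quartiles of -1.04 and 0.84. Without both Si replicate 3 libraries, 184 A04 genes were higher in root and 157 in leaf, and 48 and 50 C04 genes. Of all 45490 genes tested in that fit, 16590 were higher in root and 16525 in leaf. The division between organs thus did not rest on that replicate.

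Among A04 genes with a mean of at least 5 CPM in 1 organ, the largest fitted differences towards leaf were those of BnaA04g23700D and BnaA04g27920D. BnaA04g27920D had 433 to 1450 CPM in leaves (median 689) and 0.0599 to 3.92 CPM in roots (median 0.796). Relative to gene counts, its level was 667-fold higher in leaf (exact 95% interval 563 to 798, counting error only), and its fitted log2 difference of root over leaf was -10.04 (SE 0.59, edgeR Benjamini-Hochberg adjusted p = 5.06e-09, higher in 6 of 6 leaf libraries). BnaA04g23700D had 16.8 to 25.4 CPM in leaves (median 17.6) and 3 counts in all 6 root libraries together, a ratio of 692 with an exact 95% interval of 236 to 3358. All its root counts came from Si libraries, which had 1 each.

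The 2 A04 genes with the largest differences towards root were nearly silent in leaves. BnaA04g29630D had 13.4 to 24.7 CPM in roots (median 21.3) and 2 leaf counts in all, both in no-Si replicate 3, a ratio of 1127 (exact 95% interval 311 to 9310). BnaA04g21450D had 4.11 to 24.2 CPM in roots (median 16.1) and 1 leaf count, a ratio of 1777 (exact 95% interval 319 to 70247). The width of these intervals shows how little 1 or 2 counts fix a ratio.

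In C04, BnaC04g50420D had 83.0 to 118 CPM in leaves (median 102) and 0.180 to 0.446 CPM in roots (median 0.261). Its level was 338-fold higher in leaf (exact 95% interval 238 to 498), with a fitted log2 difference of root over leaf of -9.11 (SE 0.17, edgeR Benjamini-Hochberg adjusted p = 3.20e-13). BnaC04g48630D had 8.16 to 11.4 CPM in leaves (median 9.73) and 2 root counts. BnaC04g49100D had 8.73 to 38.4 CPM in roots (median 27.9) and 3 leaf counts, and BnaC04g50180D had 11.5 to 21.0 CPM in roots (median 12.7) and 2 leaf counts. BnaC04g50180D was highest in root Si replicate 3, with 21.0 CPM where the other roots had 11.5 to 13.3 CPM. Both segments thus hold genes confined almost wholly to 1 organ.

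**Figure D5:**
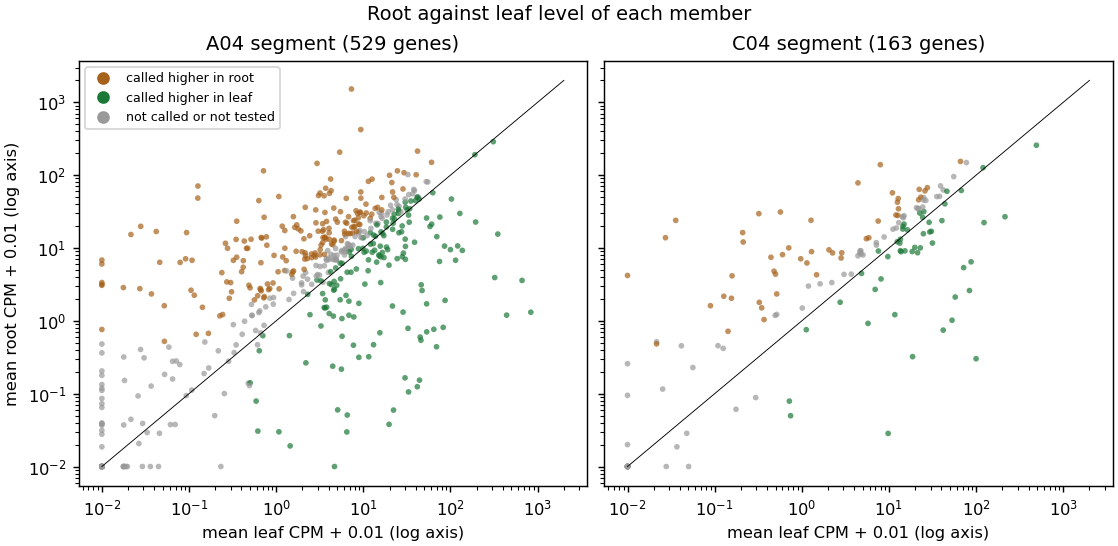
Mean CPM over the 6 root libraries (y axis, log) against mean CPM over the 6 leaf libraries (x axis, log) for all 529 A04 genes (left) and 163 C04 genes (right), each with a small constant added so that 0 can be drawn. Colours mark genes called higher in root or in leaf by edgeR, and the line marks equal levels. In A04 185 genes are called higher in root and 159 in leaf, and in C04 48 and 50.

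Reads on the strand opposite to a gene were scarce in both segments. They made up 0.219% to 0.579% of the stranded counts of the A04 genes (median of the 12 libraries 0.377%), 0.349% to 1.03% of those of the C04 genes (median 0.539%) and 0.356% to 0.724% of those of all other genes (median 0.483%). Root Si replicate 3 stood apart from the other roots in this share, with 0.579% against 0.259% to 0.394% for A04, 0.695% against 0.349% to 0.526% for C04 and 0.678% against 0.391% to 0.480% for all other genes. Leaf Si replicate 3, with 0.404%, 0.685% and 0.593%, lay within the range of the other leaves. With the reads of both strands counted, the median shifts of Si replicate 3 were -0.17 in root and -0.12 in leaf for A04 and 0.18 and 0.21 for C04. Opposite-strand counts outnumbered sense counts for 3 of 435 A04 genes with at least 100 reads and for 0 of 130 such C04 genes. The matching share of all genes was not counted, so nothing is read from these numbers. The A04 gene with the highest share was BnaA04g29480D, with 243 opposite-strand and 3 sense counts. For C04 BnaC04g50930D alone gave 11.8% of the opposite-strand counts of the segment.

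Few of the identifiers could be found in another assembly. In the RefSeq annotation of Da-Ae, another assembly of B. napus, 19 of the 529 A04 identifiers and 8 of the 163 C04 identifiers equal a gene symbol, as 2287 of all 52962 do. The table names no function for them. All 8 matched C04 genes lie on chromosome C4 there. Of the 6 measured ones, 5 were above 0 in both organs of Si replicate 3, beside 33.8% of all measured genes. Of the 19 matched A04 genes, 16 lie on A4 and 3 on C4. Of the 9 measured ones on A4, 4 were below 0 in both organs and 2 above, beside 23.8% and 33.8% of all measured genes. These shifts chose the segments, so the counts are a description only.

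The 3 A04 identifiers on C4 in that assembly, BnaA04g21120D, BnaA04g21450D and BnaA04g21460D, come from the start of the segment, and their nearest matched neighbours include BnaC04g45100D and BnaC04g45540D. BnaA04g21120D, at the end of the first window, had shifts of 0.56 in root and 0.57 in leaf of Si replicate 3. BnaA04g21460D had -0.28 and -0.29, the sign of the A04 segment. All 5 matched genes among the last A04 identifiers, from BnaA04g27280D on, had a matched neighbour on A4 numbered below the segment, as did 1 of the 11 earlier matched genes on A4. In that assembly the matched last identifiers thus lie beside genes numbered before the segment, while the windows here follow the identifier number.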

How the data were processed

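RNA-seq of 12 libraries was analysed from whole-number read counts per gene, which the authors deposited for 52962 identifiers, with reads that were unmapped, multimapping, outside genes or ambiguous counted apart, per the file headers. Where A and C copies are nearly identical, a read can thus be lost or reach the wrong copy. The submitters' processing notes name TopHat2 and Bowtie2. Genome build, annotation and counter: not given in the sources used here. The reverse column was used as the sense count, with totals of 14429867 to 21792206 per library. CPM was computed here over genes, and log2 CPM with a prior count of 1 (Python 3.11.15). The segments, gene groups and thresholds were chosen with earlier results of these data known.

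All genes were fitted with edgeR 4.0.16 in R 4.3.3 (TMM, filterByExpr, robust quasi-likelihood, two-sided, Benjamini-Hochberg over all tested genes, threshold 0.05). The 6 libraries of an organ entered each Si test, and all 12 in 4 groups entered the organ test. Alternatives were DESeq2 1.42.0, voom in limma 3.58.1, different filters and scalings, replicate number as a block, planting date as a term in leaves, and fits lacking 1 library each. The fits and the shift were tested on simulated data. Of simulated 2-fold changes, the edgeR test recovered 77% in roots, 37% in leaves and 88% between organs. Of 4-fold changes it recovered 97%, 95% and 100%. False calls numbered 23, 24 and 8, with 200 genes changed in each comparison. At most 2 identifiers per direction, segment and comparison were named, by size of shift, p, log2 difference or level, besides ends of windows, matched genes and the leading opposite-strand genes, which were chosen after their values were seen. Replicates of a group differed by 5.55 to 40.6 chi-square units per degree of freedom (genes with at least 20 reads in a pair), more than sampling noise, so no pair was treated as copies of 1 library. Intervals cover counting error only.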

Additional observations from a re-analysis of the deposited data

How the results depend on the processing

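Of the results that answer a comparison, 156 values under alternatives were counted as unchanged, and another 5 moved further. Counts among the 156, both directions together, were equal or stayed within 1.5 times, so their direction was not checked. Under library totals the organ calls moved towards root, as given above, within that rule. Medians and shifts among the 156 moved by less than the replicate spread, and none changed sign. For the median Si fold changes, that spread includes Si replicate 3 itself. Their values near 0 without that replicate are therefore counted among the 156. DESeq2 called 5 genes of the segments in roots, where edgeR called 0, and BnaA04g26970D (log2 fold change -0.81), BnaA04g27560D (-0.61) and BnaA04g24700D (0.87) were among them. With planting date as a term, the median log2 fold change in leaves was -0.21 for A04 and 0.16 for C04, but Si is then judged by Si replicate 3 alone, the 1 Si library with the date of the no-Si leaves and a library that chose the segments. With library totals as the scaling, the A04 median was -0.02 in roots and in leaves, and the C04 median 0.09 and 0.13. The median of all tested genes also rose with that scaling, to 0.03 in roots and 0.04 in leaves. In roots the date term could not be fitted, since date and Si cannot be told apart there. The A04 shift of Si replicate 3 in roots was -0.13 over all genes with at least 1 count and -0.10 from summed CPM, and the summed CPM gave -0.26 in leaves. Over all alternatives the lowest and highest A04 shift was -0.20 and -0.10 for roots and -0.26 and -0.07 for leaves, and the C04 shift stayed within 0.15 and 0.19 for roots and 0.15 and 0.25 for leaves. Subtracting the median of all other genes, an alternative chosen after seeing the data, gave A04 shifts of -0.18 and -0.17. Under the removal of single libraries, the median Si fold change ran from -0.08 to -0.00 for A04 in roots, -0.10 to -0.02 for A04 in leaves, 0.00 to 0.11 for C04 in roots and 0.01 to 0.11 for C04 in leaves, and the genes called between organs from 439 to 455, against 442 with all libraries. In each of these 4 medians the value nearest 0 was that without Si replicate 3. No gene named for Si against no Si or for root against leaf changed sign in any alternative run, and the other named genes were not refitted.

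With replicate number as a block, 0 genes of the segments were called for Si in roots and 0 in leaves. Between organs 448 were called, beside 17757 higher in root and 17389 higher in leaf of all 45222 tested genes. The replicate numbers were not taken to pair the samples. Deviations of Si and no-Si libraries with the same number correlated at 0.08, 0.12 and 0.20 in roots and at -0.01, -0.12 and 0.31 in leaves. Those of root and leaf correlated at 0.04 to 0.46. In the Si group each root library correlated best with the leaf library of its number (0.17 to 0.24, others negative). Not every no-Si library did. Root no-Si replicate 1 correlated at 0.18 with leaf no-Si replicate 3 and at 0.04 with its own number. Root no-Si replicate 3 correlated at 0.24 with leaf no-Si replicate 1 and at 0.20 with its own.

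Limits: groups of 3 libraries give single genes little precision, and a library shift of about 0.2 on the log2 scale is visible as a median over many genes but not in one. Shares of reads lost between A and C copies were not measured per gene.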
